A study of Homo sapiens with 8 samples.

Results

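The genes described are 10 members of the antigen presentation pathway that lie outside the major histocompatibility complex (MHC): NLRC5, CIITA, B2M, PSMB10, PSME1, PSME2, ERAP1, ERAP2, PDIA3 and CD74. They were chosen by name, as the genes of the count table whose symbol equals one of these. They are 10 of the 25369 named genes of the table, and all 10 passed the filter on low counts. Poly(A) RNA of UWB1.289, an ovarian cancer cell line with mutated BRCA1 (called BRCA1-null), and of UWB1.289 cells carrying a transduced BRCA1 (called BRCA1+) was sequenced after 24 h in DMSO (control) or in 0.5 uM entinostat, a drug that blocks the histone deacetylases HDAC1 and HDAC3. Each of the 4 groups has 2 libraries, 8 in all. Each BRCA1 status is represented by a single line, so a difference between the lines cannot be told apart from any other difference between the parent line and its derivative. The study's methods speak of distinct samples but do not say whether the libraries of a group came from separate cultures, so the p-values measure the spread between these libraries, which may be technical.

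MHC class I molecules show peptides from the inside of the cell to CD8 T cells. The peptides are cut by the proteasome, trimmed in the endoplasmic reticulum by the aminopeptidases ERAP1 and ERAP2, and loaded onto a heavy chain that is held together by the light chain B2M and assembled with the help of PDIA3. MHC class II molecules show peptides from endosomes, and CD74, the invariant chain, guards their groove until endosomal proteases remove it. NLRC5 drives transcription of class I genes and CIITA that of class II genes, and both are themselves inducible by interferon gamma. The class I heavy chains, class II chains, the transporter subunits TAP1 and TAP2, and the other inducible proteasome subunits are encoded inside the MHC. The table held no usable counts there. Of 21 MHC genes looked up, 20 were placed on haplotype contigs and had 0 counts in all libraries, and HLA-DQA1 had 0 to 3. The members outside the MHC are therefore the measurable side of the pathway here.

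Upstream sequences are shown for the 4 members with an interferon-stimulated response element core (ISRE) and for CD74, which differed clearly between the lines. They are the last 160 bases before the annotated gene start, 5′ to 3′ on the strand of the gene, from the RefSeq annotation of GRCh38.p14. Windows were given for 7 of the 10 members. Capitals mark every match, on either strand, to the ISRE core (GAAANNGAAA), an interferon gamma-activated site (GAS, TTC and GAA with 2 to 4 bases between them), a CCAAT box or a TGACG core.
B2M, chr15:44711357-44711516, + strand: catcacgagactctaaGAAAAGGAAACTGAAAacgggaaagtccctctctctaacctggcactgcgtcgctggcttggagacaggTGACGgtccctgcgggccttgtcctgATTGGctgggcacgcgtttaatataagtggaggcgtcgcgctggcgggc
PSMB10, chr16:67936851-67937010, - strand: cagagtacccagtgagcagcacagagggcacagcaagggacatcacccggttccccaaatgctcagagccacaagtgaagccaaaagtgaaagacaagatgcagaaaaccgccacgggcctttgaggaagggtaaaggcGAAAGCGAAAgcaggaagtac
PSME2, chr14:24146611-24146770, - strand: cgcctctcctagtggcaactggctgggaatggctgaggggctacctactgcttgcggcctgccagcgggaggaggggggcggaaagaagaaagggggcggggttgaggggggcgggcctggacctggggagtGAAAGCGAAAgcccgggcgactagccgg
ERAP2, second annotated start, chr5:96876340-96876499, + strand: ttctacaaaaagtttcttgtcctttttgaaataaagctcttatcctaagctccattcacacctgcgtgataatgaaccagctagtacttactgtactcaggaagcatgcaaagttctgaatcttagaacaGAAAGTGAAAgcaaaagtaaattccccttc
CD74, chr5:150412911-150413070, - strand: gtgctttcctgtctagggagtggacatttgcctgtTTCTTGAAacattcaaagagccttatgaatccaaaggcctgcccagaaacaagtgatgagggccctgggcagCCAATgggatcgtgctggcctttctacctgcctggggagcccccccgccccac
The ISRE core was found in the 250 bases before the start of B2M, PSMB10, PSME2 and ERAP2, that is 4 of the 7 members and 1 window of each, among the 9 windows of these members (some have more than 1 annotated start). Of all 35116 windows of that length, 3.02% held it. In B2M it occurred as 2 overlapping matches beginning 144 and 138 bases before the start. The single matches of PSME2 and PSMB10 began 28 and 21 bases before their starts, and that of ERAP2 began 30 bases before the second of its annotated starts. CD74 had a GAS match with a spacer of 2 bases, beginning 125 bases before the start, and 17.1% of windows held a GAS with any of the 3 spacers. CCAAT, the box bound by nuclear factor Y, stood before B2M, CD74 and ERAP1 and in 32.0% of windows, and the TGACG core stood before B2M and in 21.2%. PSME1, whose gene lies 4397 bases from PSME2 in the deposited coordinates, had none of these letters in its window. A match is a description of letters and not a site in use.

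Total counts per library ran from 31900158 to 53549893, so the floor of 3 counts, up to which a count of 0 is uninformative, equals 0.0560 to 0.0940 CPM (counts scaled to an effective library size of 1e6). The floor reflects counting error alone. BRCA1 itself followed the labels, with a mean of 95.6 CPM in BRCA1+ control against 21.7 CPM in BRCA1-null control cells (log2 fold change −2.14 ± 0.0862 SE, adjusted p = 5.46e-07). Of the 9 epithelial and ovarian carcinoma markers, which summed to 13999 to 18436 CPM in a library, only WT1 stayed under 10 CPM in every library. The 12 leukocyte markers summed to 7.25 to 13.8 CPM, none reached 10 CPM, and MS4A1 and AIF1 were at 0. AIF1 is placed on an MHC haplotype contig, like the MHC genes without counts, so its 0 is uninformative. The 5 stromal and endothelial markers summed to 4.60 to 10.1 CPM, with DCN and LUM at 0. In bulk RNA, fewer cells that express a gene cannot be told apart from less RNA of it per cell.

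In the deposited coordinates (hg19, whole gene spans), B2M lies at chr15:45003685-45010357 and PDIA3 at chr15:44038590-44064804, NLRC5 at chr16:57050986-57117436, PSMB10 at chr16:67968407-67970780 and CIITA at chr16:10971055-11018840. PSME1 (chr14:24605367-24608176) and PSME2 (chr14:24612574-24615855) are neighbours, as are ERAP1 (chr5:96096514-96149848) and ERAP2 (chr5:96211644-96255406), and CD74 lies at chr5:149781200-149792499. Levels of the members spanned a wide range. Per kilobase of gene model, B2M was the most abundant member in BRCA1+ control cells at 135 CPM per kb, followed by PSME2 (114), PSME1 (98.3) and PDIA3 (84.8). CD74 (18.8), PSMB10 (12.2) and ERAP1 (6.37) held the middle of the order, and ERAP2 (0.577), NLRC5 (0.105) and CIITA (0.0395) its end. BRCA1+ entinostat and BRCA1-null control cells gave the same order. After entinostat in BRCA1-null cells NLRC5, at 0.649 CPM per kb, stood above ERAP2 at 0.443. Within each group the 2 libraries of a member and those of its neighbour in the order never overlapped, on 2 values each. The plot of CPM in each library shows these levels gene by gene.

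**Figure D1:**
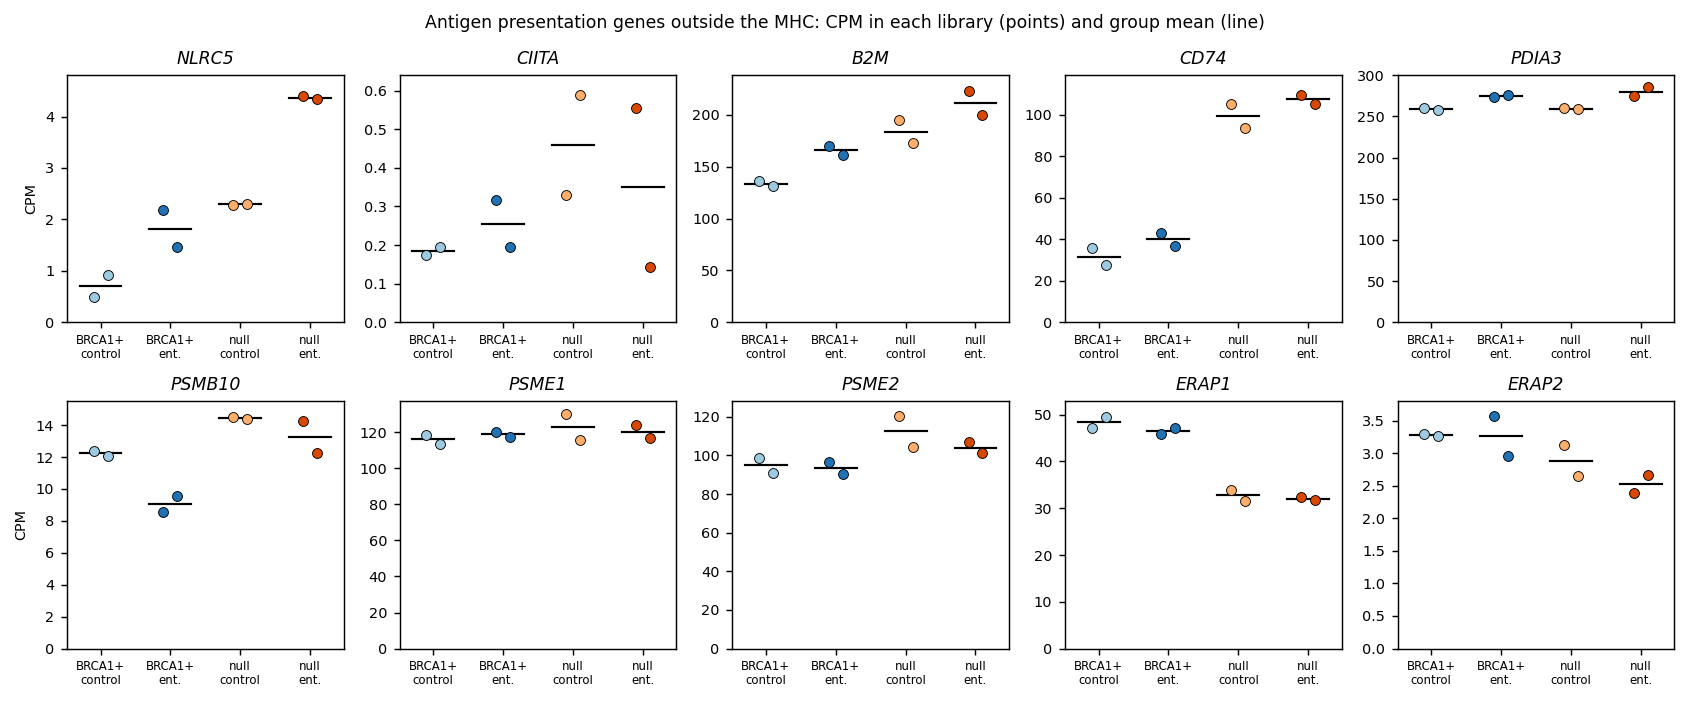
Each panel plots 1 gene in CPM (vertical axis from 0, scaled per gene) for the 4 groups; points are the 2 libraries and the line is their mean. CD74 and ERAP1 separate the lines in both treatments, NLRC5 steps up with line and with entinostat, and PDIA3 stays between 258 and 285 CPM.

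The first comparison asked how the lines differ without the drug. In DMSO, 5 of the 10 members differed between BRCA1-null and BRCA1+ cells at an adjusted p under 0.05 (quasi-likelihood test of edgeR, Benjamini-Hochberg adjusted over 17714 genes), where 42.2% of all tested genes did. NLRC5, CD74, B2M and PSME2 were higher in BRCA1-null cells, 4 of 10 against 21.1% of all genes, and ERAP1 was lower, 1 of 10 against 21%. The total of members called was thus near the background, and the higher calls stood above their share of all genes by a number of genes too small to read anything from. The median log2 fold change of the members was 0.24, against 0.012 over all tested genes. In entinostat, 5 of 10 members again differed (39.4% of all genes), with NLRC5, CD74, B2M and PSMB10 higher (20.5%) and ERAP1 lower (18.9%). The median there was 0.25, against 0.019 over all genes. The line comparisons in DMSO and in entinostat use different libraries but enter a single fit, which shares one estimate of the spread.

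NLRC5, the class I transactivator, was scarce in every library. It measured 0.500 and 0.915 CPM in BRCA1+ control (20 and 42 counts), 2.29 and 2.30 in BRCA1-null control, 2.18 and 1.47 in BRCA1+ entinostat, and 4.39 and 4.33 in BRCA1-null entinostat cells. BRCA1-null libraries lay above BRCA1+ libraries of the same treatment without overlap. The difference between the lines was 3.17-fold in DMSO (log2 fold change 1.66 ± 0.300 SE, adjusted p = 0.00201) and 2.48-fold in entinostat (1.31 ± 0.225, adjusted p = 0.00157). Both differences kept their call in every alternative.

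CIITA, the class II transactivator, gave only 6 to 32 counts in a library, or 0.144 to 0.589 CPM, a few times the counting floor. Its log2 fold change between the lines was 1.32 in DMSO, with a 95% interval of −0.11 to 2.75 (adjusted p = 0.120), and 0.56 in entinostat (−0.94 to 2.06, adjusted p = 0.545). The 2 BRCA1-null entinostat libraries differed among themselves, at 26 and 6 counts. A difference in CIITA was not detectable at this depth.

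CD74, the invariant chain of MHC class II, showed one of the clearest contrasts between the lines. It measured 35.6 and 27.5 CPM in BRCA1+ control, 105 and 93.6 in BRCA1-null control, 43.1 and 36.9 in BRCA1+ entinostat, and 110 and 105 in BRCA1-null entinostat cells. Every BRCA1-null library was more than 2 times every BRCA1+ library. The line difference was 3.15-fold in DMSO (1.66 ± 0.121, adjusted p = 1.3e-05) and 2.70-fold in entinostat (1.43 ± 0.120, adjusted p = 2.7e-05). The leukocyte markers, which stand for the cells that normally carry most CD74, overlapped in their sum between the lines in DMSO (8.53 to 12.4 CPM in BRCA1+ and 9.16 to 11.6 CPM in BRCA1-null libraries), and in entinostat they were lower in BRCA1-null libraries (7.25 to 10.3 CPM) than in BRCA1+ libraries (13.6 to 13.8 CPM). Single markers went both ways in entinostat. CD14 had means of 4.61 CPM in BRCA1+ and 1.63 CPM in BRCA1-null cells, and PTPRC 4.37 and 3.04 CPM. CSF1R had 0.0904 CPM in BRCA1+ and 0.487 CPM in BRCA1-null cells. The part of the leukocyte markers in the result was not tested. CD74 and ERAP1, like NLRC5, kept their line calls in every alternative.

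B2M, the class I light chain, differed in the same direction as CD74, by a smaller factor. Its values were 136 and 131 CPM in BRCA1+ control, 195 and 172 in BRCA1-null control, 170 and 161 in BRCA1+ entinostat, and 223 and 200 in BRCA1-null entinostat cells. No BRCA1-null library fell below a BRCA1+ library of either treatment. The line difference was 1.37-fold in DMSO (0.46 ± 0.0771, adjusted p = 0.00139) and 1.28-fold in entinostat (0.35 ± 0.0769, adjusted p = 0.00586). The second of these lost its call without BRCA1+ entinostat replicate 2 (adjusted p = 0.0551).

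Among the proteasome members, the estimated differences between the lines were at most 1.46-fold. PSMB10, an inducible catalytic subunit of the immunoproteasome, measured 12.4 and 12.1 CPM in BRCA1+ control, 14.5 and 14.4 in BRCA1-null control, 8.55 and 9.53 in BRCA1+ entinostat, and 14.3 and 12.2 after entinostat in the BRCA1-null line. The lines did not overlap within a treatment, and the lowest values were those of BRCA1+ entinostat. The line difference was called in entinostat (1.46-fold, 0.55 ± 0.114, adjusted p = 0.00459) and was 0.24 ± 0.105 in DMSO (adjusted p = 0.0957).

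PSME1 and PSME2 encode the alpha and beta subunits of the PA28 proteasome activator. PSME2 measured 98.9 and 90.8 CPM in BRCA1+ control against 121 and 104 in BRCA1-null control cells, and 96.3 and 90.4 against 107 and 101 in entinostat. The lines did not overlap in either treatment, but the gaps were small. The line difference was 1.19-fold in DMSO (0.25 ± 0.0818, adjusted p = 0.0374), a call lost when only the groups compared were fitted (adjusted p = 0.0551) and, on omission of a single library, without BRCA1-null control replicate 1 (0.181), BRCA1+ control replicate 2 (0.196) or either BRCA1+ entinostat library (0.0509). In entinostat it was 0.16 ± 0.0826 (adjusted p = 0.166), and with the replicate number as a block it was 0.16 ± 0.051 and called (adjusted p = 0.0309). PSME1 ranged from 114 to 130 CPM over all libraries and was called in neither comparison. Its log2 fold change was 0.081 in DMSO (95% interval −0.077 to 0.24) and 0.020 in entinostat (−0.14 to 0.18), which bounds any difference between the lines below 1.18-fold.

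ERAP1, the aminopeptidase that trims class I peptides to their final length, was the member that was lower in BRCA1-null cells. It measured 47.2 and 49.5 CPM in BRCA1+ control, 34.0 and 31.5 in BRCA1-null control, 45.8 and 47.2 in BRCA1+ entinostat, and 32.4 and 31.7 after entinostat in the BRCA1-null line. The 4 BRCA1-null libraries lay under the 4 BRCA1+ libraries. The level in BRCA1-null cells was 0.676 times that of BRCA1+ cells in DMSO (−0.56 ± 0.0698, adjusted p = 2.36e-04) and 0.688 times in entinostat (−0.54 ± 0.0710, adjusted p = 3.51e-04). The gene model of ERAP1 overlaps that of CAST, on the opposite strand, by 13872 bases. CAST had 8696 to 19216 counts and was also lower in BRCA1-null cells (−1.04 ± 0.0476 in DMSO, adjusted p = 1.1e-06). The strand setting of the counting is not given in the sources used here, so reads of both genes in the shared stretch cannot be told apart.

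ERAP2, the companion of ERAP1 that prefers other peptide ends, measured 3.30 and 3.27 CPM in BRCA1+ control, 3.12 and 2.65 in BRCA1-null control, 3.56 and 2.95 in BRCA1+ entinostat, and 2.39 and 2.66 in BRCA1-null entinostat cells. Its line difference was −0.20 in DMSO (95% interval −0.59 to 0.20, adjusted p = 0.401) and −0.35 in entinostat (−0.77 to 0.073, adjusted p = 0.173). Per kilobase, ERAP1 stood 8.17 to 12.0 times above ERAP2 in a library.

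PDIA3, a disulfide isomerase of the class I loading complex and a general folding enzyme, was the most even member. It measured 260 and 258 CPM in BRCA1+ control, 260 and 259 in BRCA1-null control, 274 and 277 in BRCA1+ entinostat, and 275 and 285 after entinostat in the BRCA1-null line. The lines overlapped in both treatments. Its log2 fold change between the lines was 0.0034 in DMSO, with a 95% interval of −0.10 to 0.11, so a difference beyond 1.08-fold in either direction lay outside the interval. The pseudogene PDIA3P1, which shares sequence with it, had 23 to 44 counts.

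**Figure D2:**
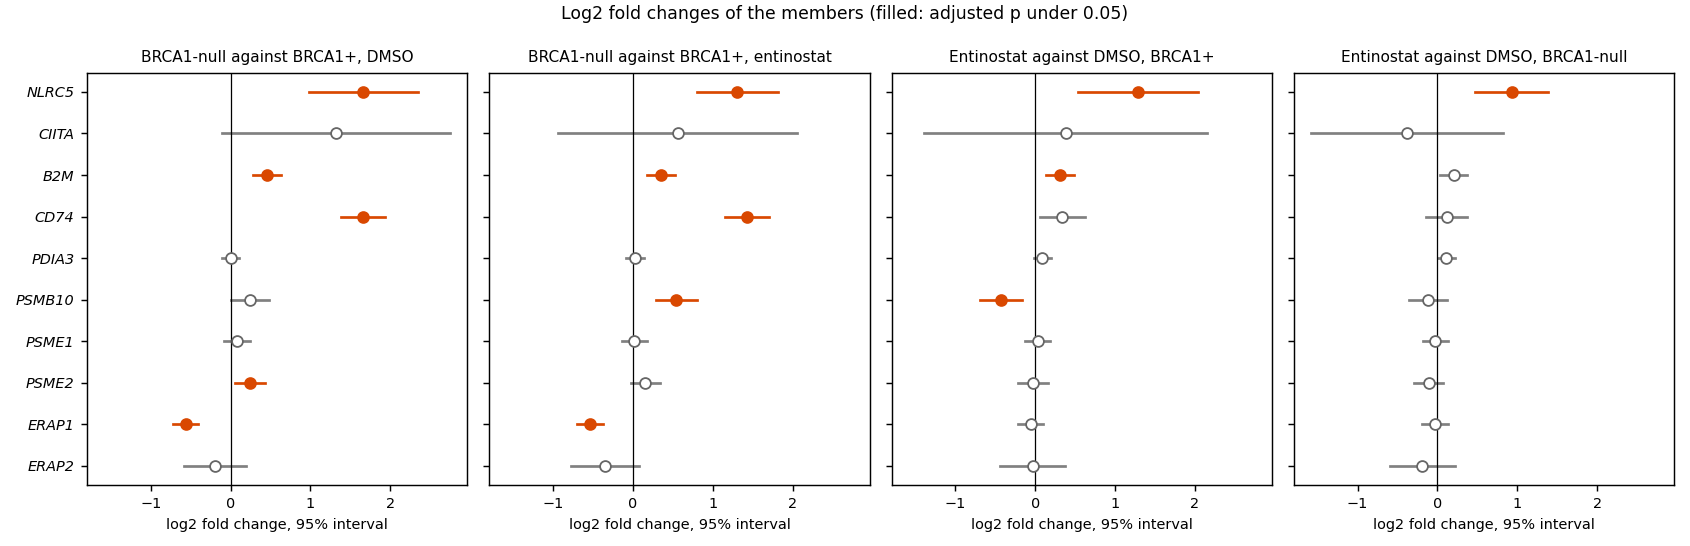
Log2 fold changes (horizontal axis) of the 10 members in 4 comparisons, with 95% intervals from the edgeR fit; filled points have an adjusted p under 0.05. NLRC5 and CD74 lie at 1.66 in the line comparison in DMSO and ERAP1 at −0.56, while most entinostat effects lie near 0.

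The second question was how each line responded to entinostat. In BRCA1+ cells 3 of 10 members were called, where 14.1% of all tested genes were: NLRC5 and B2M were higher (8.13% of all genes) and PSMB10 was lower (6%). In BRCA1-null cells 1 of 10, NLRC5, was called, against 10.8% of all genes in either direction, 7.57% higher and 3.19% lower. The median log2 fold change of the members was 0.061 for BRCA1+ and −0.029 for BRCA1-null cells, against 0.00041 and 0.019 over all genes. With 1 library omitted, 0 to 3 members were called in BRCA1+ and 0 to 1 in BRCA1-null cells. Both drug comparisons share libraries with the line comparisons. The fit behind these counts has no replicate block. With the replicate number as a block, 4314 of all tested genes were called in BRCA1+ cells, against 2503. In BRCA1-null cells it was 3640 against 1906.

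NLRC5 was the member called higher with entinostat in both lines. The change was 2.44-fold in BRCA1+ cells (log2 fold change 1.28 ± 0.333 SE, adjusted p = 0.0340) and 1.90-fold for BRCA1-null cells (0.93 ± 0.201, adjusted p = 0.0221), and every entinostat library lay above both control libraries of its line. With 1 library of the compared groups omitted, which leaves 1 library in a group, the change stayed positive but lost its call each time. The estimates were then 0.94 to 1.81 in BRCA1+ cells and 0.90 to 0.94 in BRCA1-null cells. The fit with a replicate block kept both calls. DESeq2 gave an adjusted p of 0.0551 in BRCA1-null cells.

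B2M rose 1.24-fold with entinostat in BRCA1+ cells (0.31 ± 0.0776, adjusted p = 0.0301), without overlap between the treatments. Its call was lost on omission of any 1 of the 4 libraries compared, which leaves 1 library in a group, with estimates from 0.27 to 0.34. The fit with a replicate block kept it. In BRCA1-null cells the value was 0.20 ± 0.0763 (adjusted p = 0.123), and with the replicate number as a block it was 0.20 ± 0.0482 and called (adjusted p = 0.0178).

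PSMB10 was lower with entinostat in BRCA1+ cells, at 0.744 times the control level (−0.43 ± 0.116, adjusted p = 0.0397). The call was lost with upper-quartile scaling (adjusted p = 0.0688). It was also lost on omission of any 1 of the 4 BRCA1+ libraries (estimates −0.52 to −0.35) or of BRCA1-null control replicate 1 (−0.42) or 2 (−0.43). The fit with a replicate block kept it. In BRCA1-null cells the value was −0.12 ± 0.104 (adjusted p = 0.505).

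CD74 had a log2 fold change of 0.34 ± 0.126 with entinostat in BRCA1+ cells, where the treatments did not overlap (adjusted p = 0.108). With the replicate number as a block it was called (0.35 ± 0.0761, adjusted p = 0.0101), as it was with DESeq2 (0.0339) and without BRCA1+ control replicate 1 (0.53, adjusted p = 0.0364). In BRCA1-null cells it was 0.11 ± 0.112 (adjusted p = 0.564). The PDIA3 estimates were 0.089 ± 0.0477 and 0.11 ± 0.0475 (adjusted p = 0.260 and 0.168), with entinostat libraries above control libraries in both lines. PSME1, PSME2, ERAP1, ERAP2 and CIITA were called in neither line, and their estimates ran from −0.38 to 0.38, with both extremes belonging to CIITA.

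The third question was whether the response differed between the lines. In the interaction, which is the response of BRCA1-null minus that of BRCA1+ cells, none of the 10 members was called in the quasi-likelihood test of edgeR (0% of all genes, smallest member adjusted p = 0.967), and 0 members had an unadjusted p under 0.05. Over all 17714 genes, 0 were called and 827 had an unadjusted p under 0.05, while DESeq2 called 11 and the fit with a replicate block called 1. The difference in response was −0.36 for NLRC5, with a 95% interval of −1.26 to 0.54, and 0.31 for PSMB10 (−0.045 to 0.66). For B2M it was −0.11 (−0.35 to 0.14) and for CD74 −0.23 (−0.61 to 0.15). The intervals leave room for differences of these sizes, so equal responses were not shown.

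To see whether genes at the same place moved with them, each member was set beside its 50 nearest tested genes in the line comparison in DMSO. The neighbours of ERAP1 and ERAP2 on chromosome 5, from 86564070 to 102898490 (hg19), had a median log2 fold change of −0.73, and 31 of the 50 around ERAP1 were called as lower and 3 as higher. The −0.56 of ERAP1 thus lay 0.16 above the median of its own surroundings, with 33 neighbours below it. ERAP2, at −0.20, lay above 39 of its 50. LNPEP, an aminopeptidase of the same subfamily that lies beside ERAP2, fell by 1.56 (adjusted p = 1.3e-05).

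CD74 lies further along the same chromosome (149781200 to 149792499), among neighbours with a median of −0.47, of which 28 were called as lower and 6 as higher. CD74 itself differed from that median by 2.13 and exceeded 46 of the 50. PSME1 and PSME2 on chromosome 14 lay among neighbours with a median of 0.27, 21 and 20 of them called higher and 0 lower, and PSME2, at 0.25, differed from this median by −0.021. The medians around NLRC5 (−0.12), B2M (−0.10), PSMB10 (−0.039) and PDIA3 (−0.060) were closer to 0. NLRC5 exceeded 47 of its 50 neighbours and B2M exceeded 42. No copy numbers were measured, and the part of position in these differences was not tested.

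**Figure D3:**
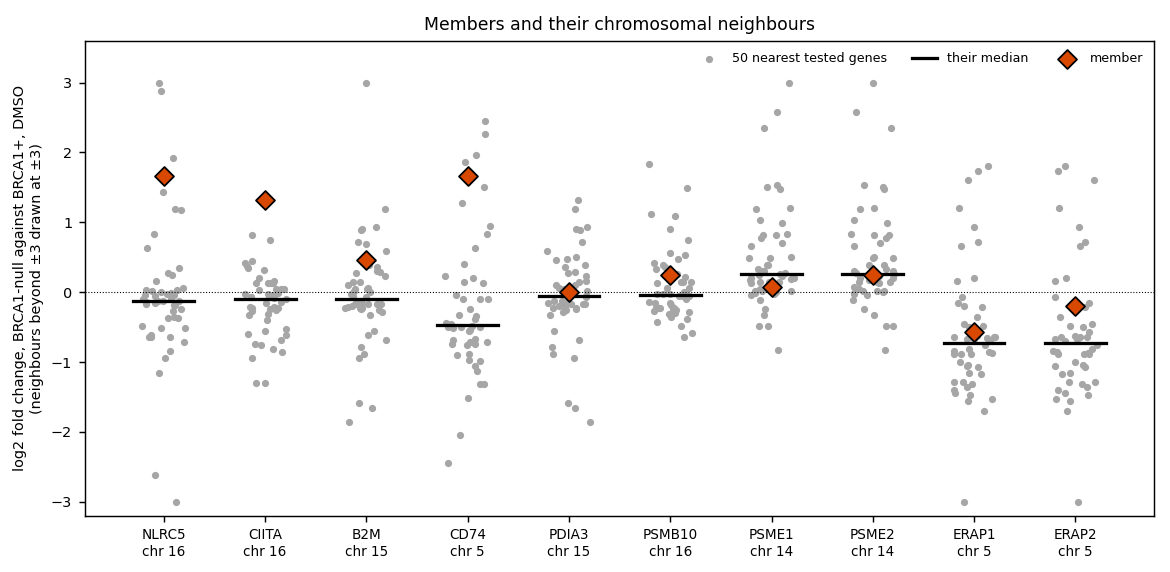
Log2 fold change of BRCA1-null against BRCA1+ cells in DMSO (vertical axis) for each member (diamond), its 50 nearest tested genes (grey points, drawn at ±3 where beyond) and their median (bar). ERAP1 lies within the low values of its surroundings and PSME2 at the median of its own, whereas CD74 lies 2.13 above its neighbours' median.

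Genes whose pattern over the 8 libraries was most like that of a member were found as the smallest root mean square difference of centred log2 CPM among other tested genes whose mean log2 CPM was 3 or more. For PSME1, PSME2 and ERAP1 the nearest gene lay on the member's own chromosome: NDUFB1 (0.0253) and PPP1R13B (0.0265), both on chromosome 14, and NHP2 on chromosome 5 (0.0312). How often this holds over all genes was not counted, so nothing is read from it. PDIA3 was nearest to IGF2R (0.0200), B2M to ALDH2 (0.0414), ERAP2 to PAQR4 (0.0591) and PSMB10 to RECQL5 (0.0806). CD74 was nearest to NID1 at 0.104. NLRC5, nearest to ETV1 at 0.297, and CIITA, nearest to LOC284454 at 0.417, had no close match, and both have low counts. No member was the nearest gene of another, but NLRC5, CIITA and ERAP2 fell under the limit of 3 and could not be. With 10526 or 10527 genes to choose from, this says little about a shared pattern.

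The remaining pathway outside the MHC was followed in 5 lists of 58 genes, of which 53 were tested. In the line comparison in DMSO 26 of the 53 were called, where 42.2% of all genes were. Of these, 11 had the higher level in BRCA1-null cells and 15 the lower. In entinostat 24 were called, 12 each way, where 39.4% of all genes were. For the drug, BRCA1+ cells had 13 calls (7 up, 6 down) and BRCA1-null cells 6 (5 up, 1 down), where 14.1% and 10.8% of all genes were called. The 6 in BRCA1-null cells became 13 with a replicate block and 0 when only the groups compared were fitted, so each drug call named below for that line was lost in the latter fit (adjusted p = 0.0551 to 0.0913 for the 5 named genes). Upper-quartile scaling left 9 calls in BRCA1+ cells, 7 of them up. With 1 library omitted the drug counts lay between 2 and 13 in BRCA1+ and between 1 and 5 in BRCA1-null cells. Of the 9 genes named for the drug in BRCA1+ cells, NFYC and CTSB were called in every alternative and the other 7 lost their call in at least 1. In the interaction edgeR called 0 of the 53. The shares of all genes given above are the background for the counts of each list.

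Of the 14 genes of transcriptional control, 1 was higher (21.1% of all genes) and 6 were lower (21%) in BRCA1-null cells in DMSO (median −0.20). The subunits of nuclear factor Y, which binds the CCAAT box, went in opposite directions: NFYB was 0.90 ± 0.0793 higher, while NFYA (−0.78) and NFYC (−0.71) were lower. IRF1, which binds the ISRE, had means of 10.9 CPM in BRCA1+ control and 12.1 CPM in BRCA1-null control cells and was not called (0.15, adjusted p = 0.368). IFNGR2, a chain of the interferon gamma receptor, was higher with entinostat in both lines, by 0.32 and 0.34 (adjusted p = 0.0332 for BRCA1+ and 0.0298 for BRCA1-null cells, the latter 0.0913 when only the groups compared were fitted). NFYC (−0.47) and NFYA (−0.28) were lower after the drug in BRCA1+ cells.

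Of the 9 proteasome subunits and activators, 2 were higher (21.1% of all genes) and 3 lower (21%) in BRCA1-null cells in DMSO, all by small amounts. PSMA7 (0.34) and PSMB5 (0.23) were higher, and PSMA3 (−0.26) and PSME4 (−0.25) were among the lower. With entinostat 4 of the 9 were lower in BRCA1+ cells (6% of all genes), and none was called for BRCA1-null cells (3.19% of all genes lower), while the interaction called 0 of the 9. PSMB5, a constitutive catalytic subunit, was lower (−0.26), as was PSME3, the nuclear activator (−0.23). With upper-quartile scaling all 4 of these proteasome calls were lost, those of PSMB5 and PSME3 at an adjusted p of 0.0679 and 0.0598. PSMB10 was lower in the same comparison, and its call was lost with that scaling too (adjusted p = 0.0688).

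Among 16 genes of peptide trimming and class I folding, 2 were higher (21.1% of all genes) and 5 lower (21%) in BRCA1-null cells in DMSO. The cytosolic aminopeptidase LAP3 was 0.39 higher, and NRD1, a peptidase of the cytosol, was lower (−0.63) along with LNPEP. HSPA5, a chaperone of the endoplasmic reticulum, was higher with entinostat in both lines (0.23 and 0.28, adjusted p = 0.0383 and 0.0252), and LAP3 was lower in BRCA1-null cells (−0.23, adjusted p = 0.0494). In BRCA1-null cells both calls were lost when only the groups compared were fitted (adjusted p = 0.0757 and 0.0756).

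The class II route held the largest line difference of the named genes. CTSS, the endosomal protease cathepsin S that removes the last part of CD74 from class II molecules, measured 2.48 and 1.83 CPM in BRCA1+ control against 24.5 and 22.5 CPM in BRCA1-null control cells, an 11.0-fold difference (3.46 ± 0.158). CTSL, a cathepsin of the same family, was 2.35-fold higher (1.23 ± 0.160). CTSS and CTSL were named for the largest called positive changes in this list, so their sharing CD74's direction follows from that choice. IFI30, a thiol reductase of endosomes, was lower in BRCA1-null control cells (−0.41) and higher with entinostat in both lines, by 0.55 and 0.63 (adjusted p = 0.0140 and 0.0116). The cathepsin CTSB was also higher with entinostat, by 0.43 in BRCA1+ and 0.22 in BRCA1-null cells. Of the 11 genes of the list, BRCA1-null control cells had 4 higher (21.1% of all genes) and 1 lower (21%). The drug comparison had 4 higher for the BRCA1+ line (8.13% of all genes), 3 for the BRCA1-null line (7.57% of all genes, and 0 of the list when only the groups compared were fitted) and 0 lower in either.

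Of 8 listed class I-like genes 3 were tested, FCGRT, MR1 and CD1D, whose products pair with B2M as class I heavy chains do. FCGRT, the neonatal Fc receptor, measured 4.60 and 4.60 CPM in BRCA1+ control against 25.5 and 29.0 CPM in BRCA1-null control cells, a 5.93-fold difference (2.57 ± 0.116). MR1, which presents microbial metabolites, was 1.85-fold higher (0.88 ± 0.127). CD1D, which presents lipids, had means of 0.364 CPM in BRCA1+ and 0.587 CPM in BRCA1-null control cells and was not called in DMSO (0.68, adjusted p = 0.276), and in entinostat it was 2.39-fold higher in BRCA1-null cells (0.533 against 1.30 CPM, adjusted p = 0.0239). Entinostat raised FCGRT 1.64-fold in BRCA1+ cells (0.72 ± 0.140, adjusted p = 0.0114).

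**Figure D4:**
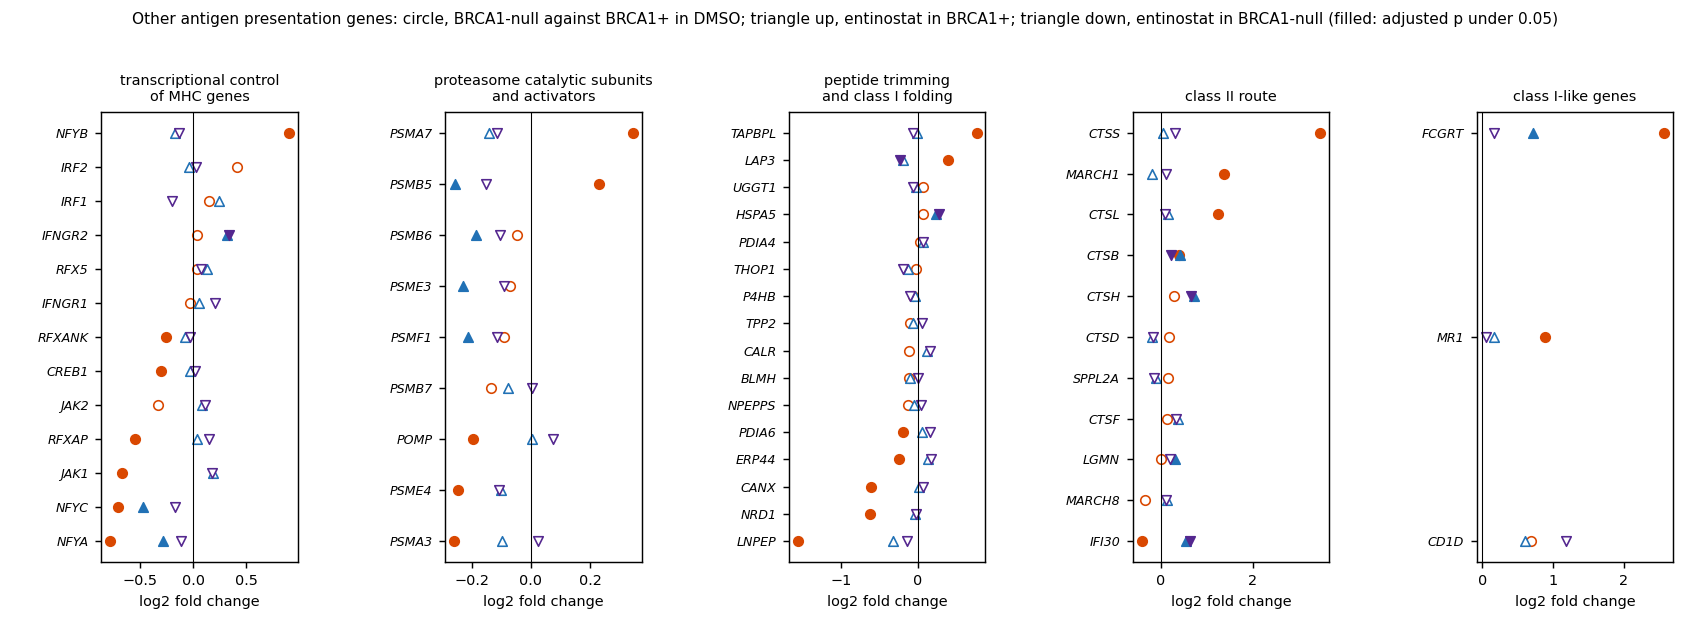
Log2 fold changes (horizontal axis) of the tested genes of the 5 pathway lists, except 1 not reported here: circles give BRCA1-null against BRCA1+ cells in DMSO, upward triangles entinostat in BRCA1+ and downward triangles entinostat in BRCA1-null cells; filled symbols have an adjusted p under 0.05. CTSS at 3.46 and FCGRT at 2.57 are the widest line differences, LNPEP at −1.56 the lowest.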

How the data were processed

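The authors aligned reads of poly(A) RNA to hg19 with TopHat 2, counted them per gene with NGSUtils, and deposited raw counts with gene positions and lengths, used here as given (positions from 1). How counting treated strand and multi-mapped reads is not given in the sources used here. Groups and replicate numbers came from the sample titles.

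Genes were kept by filterByExpr (17714), libraries were scaled by TMM, and all 8 entered 1 quasi-likelihood fit in edgeR 4.0.16 (R 4.3.3, two-sided tests, Benjamini-Hochberg adjustment over all tested genes, threshold 0.05). Named genes were the 10 members; from each pathway list, for the lines in DMSO and entinostat in each line, up to 2 called genes with the largest change in each direction at a mean log2 CPM of 3 or more; the gene most like each member; and BRCA1. IRF1, CD1D, CAST and the single leukocyte markers CD14, PTPRC and CSF1R were added after their values were seen. Of the pathway lists, 1 gene is not reported here. Members and lists were chosen with earlier results of these data known. Promoter windows came from RefSeq (GRCh38.p14), another build than the counts.

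The settings varied were the scaling (DESeq2 size factors or the upper quartile), 2 other filters, the DESeq2 1.42.0 Wald test, fits of only the groups compared, a replicate block, omission of each library, and 20 neighbours. Same-numbered libraries deviated together in all 6 pairs of groups (Pearson's r across 10405 genes 0.234 to 0.718, highest within a line). The data thus point to a pairing by replicate number, which the labels do not state. The main fit left this pairing out, so its p-values and counts ignore it. Only the alternative with a replicate block takes it in.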

Additional observations from a re-analysis of the deposited data

How the results depend on the processing

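In the fit with a replicate block the genes called with entinostat numbered 4314 in BRCA1+ and 3640 in BRCA1-null cells, against 2503 and 1906 without it, and 1 in the interaction. The block called 13 pathway genes and 2 members in BRCA1-null entinostat cells, and it changed no member call other than the 3 given above (PSME2, CD74 and B2M). Fitting only the groups compared gave 712 genes and 0 pathway genes for entinostat in BRCA1-null cells. DESeq2 gave 11 genes in the interaction and 0 members for entinostat in BRCA1-null cells. Upper-quartile factors moved the share of higher calls with entinostat in BRCA1+ cells from 57.6% to 72.5% of the genes called. With 20 neighbours the median was 0.080 around B2M and −0.17 around PDIA3. With 1 library omitted, members called numbered 4 to 5 between the lines in DMSO and in entinostat, 0 to 3 for entinostat in BRCA1+ and 0 to 1 in BRCA1-null cells. Pathway genes numbered 21 to 26, 17 to 25, 2 to 13 and 1 to 5 in the same order, and all genes 5312 to 7387, 4527 to 6918, 676 to 2413 and 512 to 1597. The lowest of these counts over all genes came without BRCA1+ entinostat replicate 2 (4527 and 676) and without BRCA1-null entinostat replicate 1 (512).

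Directions turned only for estimates that were never called, and the cause was not tested. With upper-quartile factors these were PSME2 (0.023) and ERAP2 (0.015) for entinostat in BRCA1+ cells, and ERAP1 (−0.017) and PDIA3 (−0.020) in the interaction. With the filter of at least 1 CPM in 2 libraries they were ERAP1 (−0.0097) and PDIA3 (−0.013) in the interaction, and without a filter PDIA3 between the lines in DMSO (−0.00085). With 1 library omitted the estimates crossed 0 within these ranges. Between the lines they were −0.0020 to 0.018 for PDIA3 in DMSO, and −0.75 to 1.18 for CIITA and −0.027 to 0.065 for PSME1 in entinostat. For entinostat in BRCA1+ cells they were −0.084 to 0.039 for PSME2 and −0.15 to 0.11 for ERAP2. For entinostat in BRCA1-null cells they were −1.69 to 0.24 for CIITA, −0.11 to 0.035 for PSME1 and −0.085 to 0.00092 for ERAP1. In the interaction they were −0.030 to 0.053 for ERAP1 and −0.0032 to 0.048 for PDIA3.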
